A study of Mus musculus with 9 samples.

Results

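The genes of macroautophagy and of the vacuolar ATPase were examined in 6 MYCN-driven mouse T cell lymphomas and 3 preparations of control CD4+ T cells. They were taken by symbol from the deposited table: all Atg genes with a number, all Atp6v subunit genes, Ulk1, Ulk2, Becn1, Sqstm1, the ATG8 genes of the Gabarap and Map1lc3 families, Tfeb, Tfe3, Lamp1 and Lamp2, without pseudogenes. This gave 54 of the 46078 genes in the table, 22 of them subunits of the proton pump and 32 of autophagy and the lysosome. A second table entry with the symbol Atg2a (ENSMUSG00000106907) has 0 counts in all libraries, so the 54 entries carry 53 symbols.

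Transcript 3′ ends were sequenced from lymphoma cells of the thymus, which the labels call MYCN-induced, and from CD4+ T cells of the spleen, both of strain C57BL/6J and with no treatment named. The promoter that drives MYCN, the ages of the animals, and whether the tumours arose independently are not given in the sources used here. Nor do the labels say how the CD4+ cells were purified. The libraries are called lymphoma 34, 53, 56, 70, 72 and 86, and CD4 1, 2 and 3, after their titles.

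Autophagy encloses cytoplasm in a double membrane and delivers it to the lysosome. The ULK1 kinase complex starts the process, a lipid kinase complex with Beclin 1 and ATG14 marks the membrane, ATG9 and ATG2 proteins supply lipid, and an enzyme cascade led by ATG7 attaches ATG8 proteins (LC3 and GABARAP) to it. The vacuolar ATPase acidifies the lysosome: its V1 sector splits ATP in the cytosol, and its V0 sector passes protons through the membrane. TFEB and TFE3 are transcription factors that switch on many lysosomal and autophagy genes and are held in the cytosol by mTORC1 when nutrients are plentiful. T cells need autophagy for survival and for the clearance of organelles during maturation.

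Reads counted in genes ranged from 11170704 to 15769679 in lymphoma and from 8099960 to 10808828 in CD4. They made up 38.7% to 49.1% of all reads in lymphoma and 27.8% to 35.0% in CD4, without overlap, and the part of this difference in the results was not tested. Lymphoma 53 stood apart in overall expression: its correlation with other lymphomas over all tested genes in log2 CPM was 0.884 to 0.900, and that of the other lymphoma pairs at least 0.939. The highest was 0.980, between lymphomas 70 and 72. Lymphoma 34 was at 0.953 with lymphoma 70, 0.949 with lymphoma 72 and 0.953 with lymphoma 56. These correlations thus do not set lymphomas 34, 70 and 72, averaged in 1 alternative below, apart as a group. No pair of libraries agreed within sampling noise (chi-square per degree of freedom at least 20.8). Cd3e, a T cell receptor chain, was present in both groups, at 149 to 217 CPM (reads scaled to a common library size) in lymphoma and 137 to 191 CPM in CD4. Cd4 stood at 6.03 to 71.8 CPM in lymphoma and 199 to 263 CPM in CD4, and Cd8a at 0.0644 to 29.4 CPM and 25.6 to 31.8 CPM. The 10 T cell markers summed to 2228 to 4614 CPM in lymphoma and 3351 to 3504 CPM in CD4. Of these 10, 2 were lower in lymphoma and 0 higher. The groups also differed in sex-linked transcripts (Xist 4.65 to 11.2 CPM in lymphoma and 492 to 581 CPM in CD4), so sex, tissue and group cannot be told apart. The summed level of 10 B cell markers was 1253 to 1512 CPM in CD4 and 6.84 to 13.3 CPM in lymphoma, and that of 8 plasmacytoid dendritic cell markers 813 to 879 CPM against 118 to 408 CPM. The 15 myeloid markers summed to 1075 to 1340 CPM in CD4 and 100 to 2268 CPM in lymphoma, the highest in lymphoma 56, where S100a8 alone had 1034 CPM. None of these 33 markers was at 0 in all libraries of either group. The 8 erythroid markers, of which 7 were in the table, summed to 10.03 to 755 CPM in lymphoma and 89.5 to 296 CPM in CD4, and the 12 stromal and thymic epithelial markers to 97.6 to 180 CPM and 216 to 235 CPM, with Cdh5 at 0 in all lymphomas and Dcn, Foxn1, Krt5 and Krt8 at 0 in all CD4 libraries. In such bulk samples, fewer cells of a type and less RNA per cell cannot be told apart, and the part of other cells in the results below was not tested.

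Of the 54 genes, 47 passed the filter on low counts and were tested with all other genes of the table (15401 in all). At a Benjamini-Hochberg adjusted p under 0.05 in edgeR, 20 changed, 8 higher and 12 lower in lymphoma. This was 42.6% of the 47, where 46.6% of all tested genes changed, 24.7% higher and 21.9% lower, so in this fit the share was near that of the table as a whole. The changes were mostly small. Of the 47 tested genes, only 6 were both past the threshold and at 2-fold, against 35.1% of all tested genes. These were 1 higher (Atg9b) and 5 lower (Tfe3, Tfeb, Atp6v0a1, Atg16l2 and Atg9a). Over all tested genes, 17.9% were higher and 17.2% lower by this rule. Atg9b passed the filter on low counts through its lymphoma counts alone. The median log2 fold change was -0.23, against 0.04 over all tested genes. Setting Atp6v1c2 and Atg9b, at or under 3 counts in every CD4 library, to their bounds cannot move this median, as both stay above it. The CPM values of the groups did not overlap at 18 of the 47 genes, with lymphoma above at 8 and below at 10, against 44.9% of all tested genes.

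The split between directions moved with the scaling of the libraries. It was 5 higher and 13 lower with RLE scaling or with library size alone, and 4 higher and 15 lower with upper quartile scaling, which shifted the median of all genes to -0.06. All 20 changed genes kept their sign under these 3 scalings. The count was 8 without CD4 3, which is 17.0% of the tested genes of the set against 37.2% of all tested genes in the same fit. It was 11 without CD4 2 (23.4% against 36.7%), 12 with lymphomas 34, 70 and 72 averaged into 1 library (26.7% against 43.7%), and 23 without lymphoma 53 (48.9% against 53.6%). The share of the set was thus well below that of the table in the first 3 of these fits, but not in these alone. It was also well below without lymphoma 34 (31.1% against 44.98%) or 56 (30.4% against 43.8%) and with limma voom (36.2% against 46.9%). With DESeq2 the shares were close (48.9% against 50.4%). The set was below the table in every fit except that without the filter on low counts (34.6% against 28.98%). In the plot of fold changes by role, the transcription factors and isolated isoforms stand farthest from 0.

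**Figure D1:**
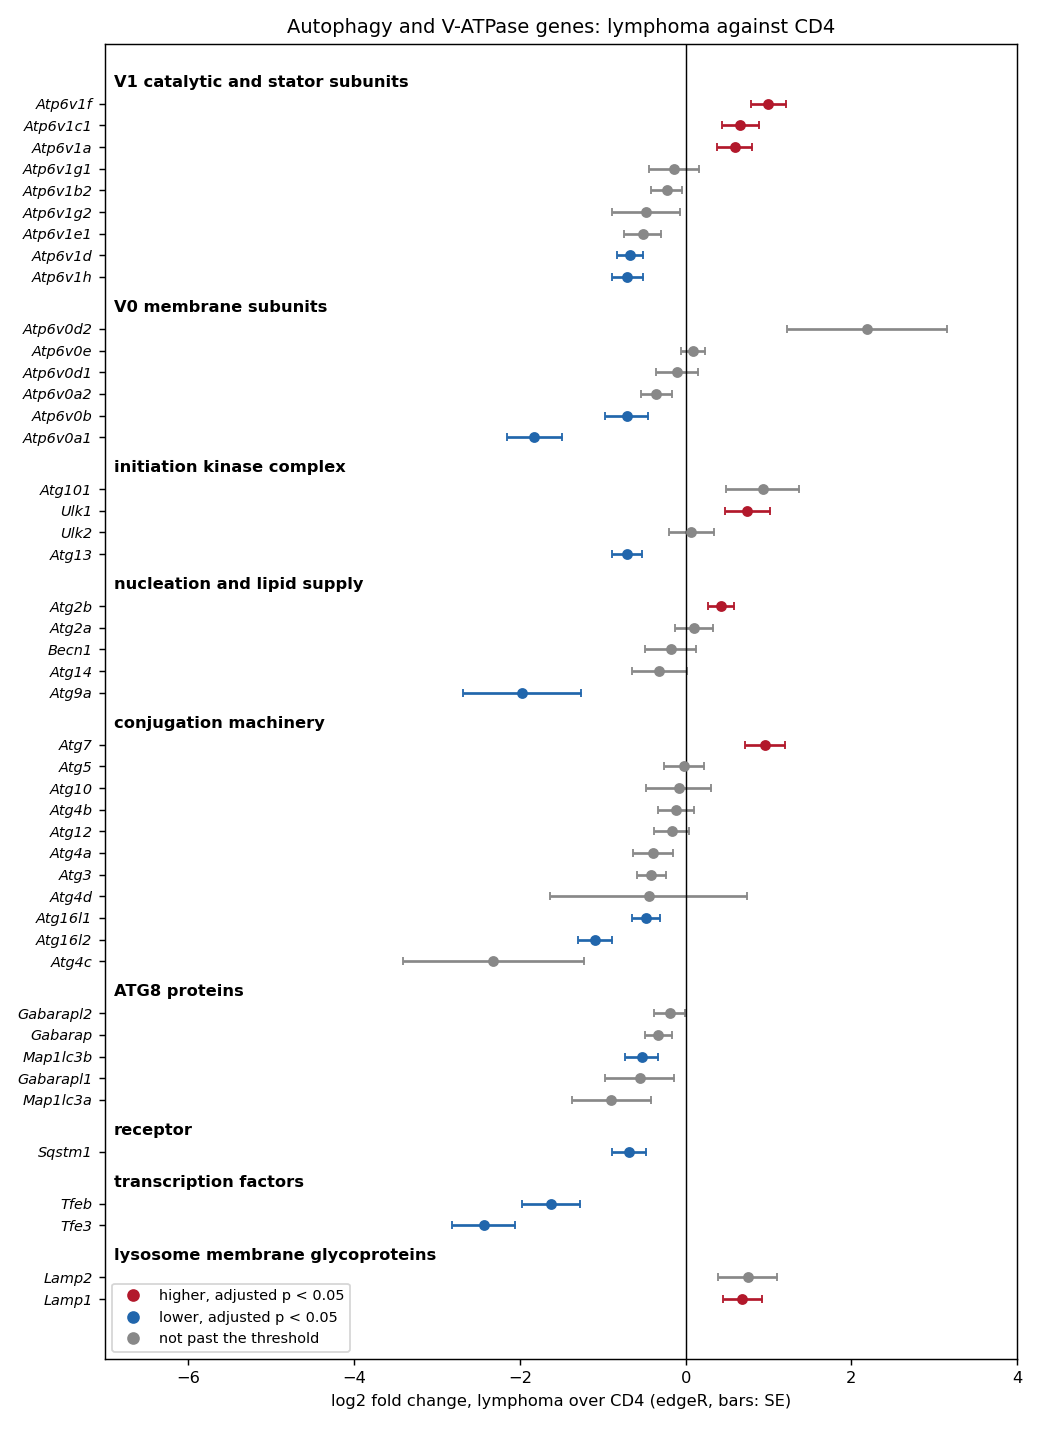
Log2 fold change of 45 tested genes, lymphoma over CD4, with standard errors (bars), grouped by role. Red and blue points passed an adjusted p of 0.05 (higher and lower in lymphoma) and grey points did not. Atp6v1c2 and Atg9b are left out because CD4 held at most 1 count of each. Tfe3 (-2.44), Atg9a (-1.97), Atp6v0a1 (-1.82) and Tfeb (-1.63) are the lowest points past the threshold.

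Both transcription factors of the set fell. Tfe3 (ENSMUSG00000000134, GRCm38 chromosome X, 7762560 to 7775202) had 28.3, 42.4 and 33.8 CPM in CD4 1, 2 and 3, and a lowest, median and highest value of 2.45, 6.59 and 10.9 CPM in lymphoma. Every lymphoma lay below every CD4 library, with lymphoma 86 lowest and lymphoma 53 highest. The log2 fold change was -2.44 (SE 0.378, edgeR adjusted p 0.000281), or 5.41-fold lower. Tfeb (ENSMUSG00000023990, chromosome 17, 47737030 to 47792419) had 12.6, 13.3 and 10.3 CPM in CD4, and a lowest, median and highest value of 2.64, 3.70 and 6.57 CPM in lymphoma. Its groups did not overlap either, and lymphoma 53 was again the highest tumour. Tfeb changed by -1.63 on the log2 scale (SE 0.351, edgeR adjusted p 0.00257), or 3.09-fold. Both calls held in all 17 alternatives. Tfe3 is X-linked, as are Lamp2 and Atg4a, and B cell and plasmacytoid dendritic cell markers moved in the same direction as both genes; the part of sex cannot be told apart from the group, and that of other cells was not tested.

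**Figure D2:**
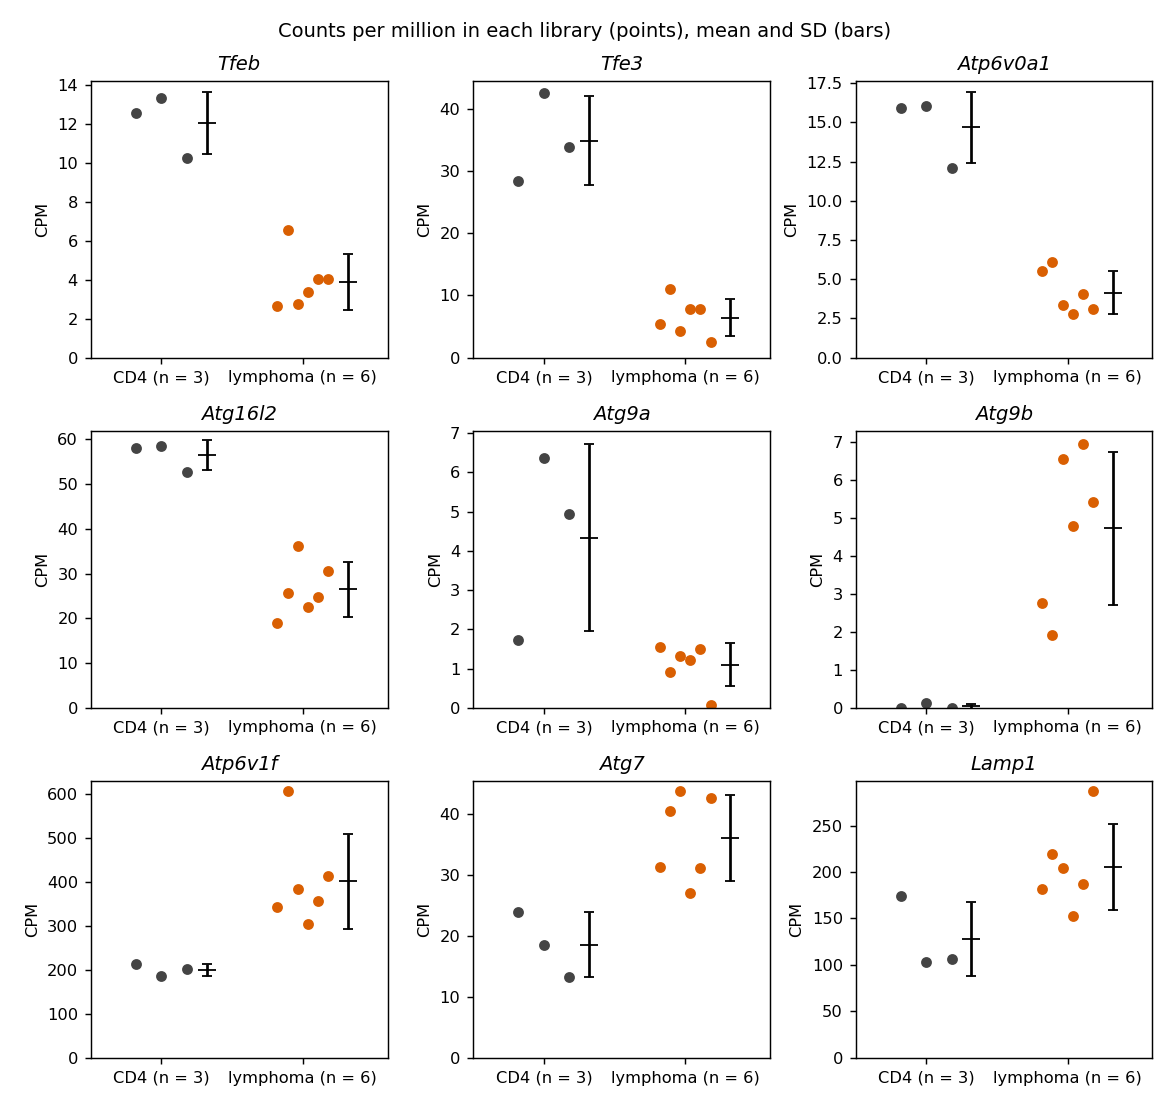
CPM in each library (points) for 9 genes, with the mean and SD of each group (bars); the vertical axes start at 0 and differ in scale. Tfeb, Tfe3, Atp6v0a1, Atg16l2 and Atg9a are lower in all 6 lymphomas than in all 3 CD4 libraries, Atg9b, Atp6v1f and Atg7 are higher, and Lamp1 overlaps through CD4 1 at 174 CPM.

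In the V1 sector of the pump, 13 genes were listed, 10 were tested, 3 rose and 2 fell. This was 50% of the 10, near the 46.6% of all tested genes. Atp6v1f, a small subunit of the central rotor, had 214, 187 and 202 CPM in CD4 and 304, 371 and 609 CPM as the lowest, median and highest lymphoma. The groups did not overlap, and lymphoma 53 was the highest. It was 1.997-fold higher (SE 0.214 on the log2 scale, edgeR adjusted p 0.00245), just under the 2-fold rule. Atp6v1c1, the subunit that joins the V1 and V0 sectors, rose by 0.66 (SE 0.226, edgeR adjusted p 0.0308), from 26.0 to 31.8 CPM in CD4 to 35.1 to 70.4 CPM in lymphoma. Atp6v1a, the catalytic subunit that binds ATP, rose by 0.59 (SE 0.216, edgeR adjusted p 0.0409), with overlap between lymphoma 53 (67.1 CPM) and CD4 1 (81.7 CPM). Its call was lost in 11 of 17 alternatives, among them the 3 other scalings and leaving out lymphoma 34, 56, 72 or 86 or CD4 2 or 3 (edgeR adjusted p 0.0526 to 0.155). That of Atp6v1c1 was lost with upper quartile scaling and without any 1 of the CD4 libraries (0.0607 to 0.0873).

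Other V1 subunits moved the opposite way. Atp6v1d, part of the central shaft, had 143, 138 and 159 CPM in CD4 and 73.6, 90.0 and 112 CPM as the lowest, median and highest lymphoma, with no overlap. It fell by 0.67 on the log2 scale (SE 0.157, edgeR adjusted p 0.00435), and the call held in all 17 alternatives. Atp6v1h, a regulatory subunit, fell by 0.70 (SE 0.189, edgeR adjusted p 0.00944), from 52.5, 76.9 and 78.8 CPM in CD4 to 33.4 to 51.2 CPM in lymphoma. This call was lost without CD4 2 or CD4 3 (0.0514 to 0.0567). Atp6v1e1, a stator subunit, lay lower in all lymphomas (33.7 to 68.4 CPM) than in all CD4 libraries (68.5 to 98.0 CPM), at a difference of -0.52 on the log2 scale that did not pass (SE 0.223, edgeR adjusted p 0.0770) but did so without lymphoma 53 (0.0470) and in 3 other alternatives. The partner of Atp6v1a in the catalytic ring, Atp6v1b2, did not pass the test (-0.23, SE 0.184, edgeR adjusted p 0.339). Nor did the stator isoforms Atp6v1g1 (-0.14, SE 0.300, edgeR adjusted p 0.727) and Atp6v1g2 (-0.48, SE 0.405, edgeR adjusted p 0.364).

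Atp6v1c2, an isoform of the joining subunit known from epithelia, varied widely between lymphomas. It had 361, 6, 92, 2, 1 and 13 counts in lymphomas 34, 53, 56, 70, 72 and 86, and 0 counts in each CD4 library. The mean was thus at least 17.2-fold above the level that 3 counts per CD4 library would give, and at least 5.45-fold without lymphoma 34. That bound does not describe lymphomas 70 and 72, which lay under 3 counts themselves. The test did not pass (edgeR adjusted p 0.0566), but it did with DESeq2 and without lymphoma 70 or 72 (edgeR adjusted p 0.0373 and 0.0410). Atp6v1c2 passed the filter on low counts through lymphoma alone, so these tests could give only a rise. Atp6v1b1, Atp6v1e2 and Atp6v1g3, isoforms known from kidney or testis, were not tested: no library had more than 10 counts of Atp6v1b1 or 4 of Atp6v1g3, and Atp6v1e2 had 0 counts in every library.

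In the V0 sector, 6 of 9 genes were tested, 0 rose and 2 fell, so that 33.3% changed, against 46.6% of all tested genes. An unadjusted edgeR p under 0.05 was reached by 3 of the 6, and by 8195 of all 15401 tested genes. Atp6v0a1, one of several isoforms of the large membrane subunit that steers the pump to its organelle, carried the larger change. It had 15.9, 16.1 and 12.1 CPM in CD4 1, 2 and 3, and 2.75, 3.70 and 6.11 CPM as the lowest, median and highest lymphoma. All lymphomas were below all CD4 libraries. Atp6v0a1 (ENSMUSG00000019302, chromosome 11, 101009452 to 101063719) changed by -1.82 on the log2 scale (SE 0.333, edgeR adjusted p 0.000860), or 3.54-fold, and the call held in all 17 alternatives. Its isoform Atp6v0a2 stood at 51.2 to 77.0 CPM in CD4 and 40.4 to 59.0 CPM in lymphoma (-0.35, SE 0.189, edgeR adjusted p 0.149).

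Atp6v0b, a proton-carrying ring subunit, fell by 0.71 (SE 0.254, edgeR adjusted p 0.0368). It had 94.1, 104 and 85.4 CPM in CD4 and 40.4 to 61.7 CPM in 5 lymphomas, while lymphoma 53, at 98.5 CPM, overlapped with CD4. The call was lost in 8 of 17 alternatives, 7 of which left out 1 library (lymphoma 34, 56, 70 or 86, or any CD4 library; edgeR adjusted p 0.0644 to 0.126). Atp6v0e and Atp6v0d1 differed by less than their spread (0.09, SE 0.140, with a sign that depends on the scaling, and -0.10, SE 0.255). Atp6v0d2, an isoform known from osteoclasts, had 0.858, 0 and 1.65 CPM in CD4 and 1.09 to 9.03 CPM in lymphoma, highest in lymphoma 53; the test passed only with DESeq2 (edgeR adjusted p 0.0837, DESeq2 0.0295).

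The main ring subunit Atp6v0c could not be read from these counts. It is listed with 0, 19 and 38 counts in CD4 and 0 to 3 counts in lymphoma. The last 300 bases of its transcript match 2 pseudogenes elsewhere in the genome at 100% and 97.3% identity, and reads that align to more than 1 place are in no gene's count. The isoforms Atp6v0a4 and Atp6v0e2 were not tested either, with at most 3 and 6 counts in any library.

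Among the 4 genes of the initiation kinase complex, Ulk1 rose and Atg13 fell. Ulk1, the kinase, had 15.5, 15.7 and 15.4 CPM in CD4 and 17.1, 24.4 and 35.7 CPM as the lowest, median and highest lymphoma. Every lymphoma exceeded every CD4 library, with lymphomas 34 and 72 highest. The rise of 0.75 on the log2 scale (SE 0.269, edgeR adjusted p 0.0385) lost its call in 12 of 17 alternatives, including the 3 other scalings and leaving out lymphoma 34, 70 or 72 or any CD4 library (0.0531 to 0.0954). Its paralogue Ulk2 did not differ beyond the spread (0.07, SE 0.271, with a sign that depends on the scaling). Atg13, which recruits the kinase, had 29.3, 35.6 and 42.1 CPM in CD4 and 20.04 to 24.6 CPM in lymphoma, the narrowest range of the 4. It fell by 0.71 (SE 0.180, edgeR adjusted p 0.00690), and only leaving out CD4 3 ended the call (0.0521). Atg101, which stabilises Atg13, was above CD4 in all lymphomas: 36.1 to 44.7 CPM in 5 of them, 137 CPM in lymphoma 53, and 23.5 to 32.5 CPM in CD4. It passed only without lymphoma 53 (log2 fold change 0.44, edgeR adjusted p 0.0419, against 0.93 and 0.105 with it).

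The lipid scramblase genes Atg9a and Atg9b, whose proteins sit in the vesicles that seed the new membrane, moved in opposite directions. Atg9b (ENSMUSG00000038295, chromosome 5, 24384181 to 24392143) had 0, 1 and 0 counts in CD4 and 43, 21, 90, 78, 106 and 75 counts in lymphomas 34, 53, 56, 70, 72 and 86. This placed the lymphoma mean of 4.72 CPM (SD 2.02, n = 6) at least 15.4-fold above the level of 3 counts per CD4 library (edgeR adjusted p 0.000185). Atg9b passed the filter on low counts through its lymphoma counts alone. Its test could therefore give only a rise, and the p-value is no separate evidence for the direction. Leaving out 1 library moved that bound between 13.95 and 17.2. Atg9a (ENSMUSG00000033124, chromosome 1, 75180860 to 75192196) had 1.72, 6.35 and 4.95 CPM in CD4 and 0.0721, 1.27 and 1.55 CPM as the lowest, median and highest lymphoma, where lymphoma 86 had 1 count. The call (-1.97 on the log2 scale, SE 0.711, edgeR adjusted p 0.0386) was lost in 6 of 16 alternatives, 5 of them without lymphoma 34, 56 or 70 or CD4 2 or 3 (0.0525 to 0.165). The exons of Atg9a share 1832 bases with Gm29253 on the same strand, the last 300 of the transcript among them, and those of Atg9b share 294 bases with Nos3 on the opposite strand, and reads that fit more than 1 gene are in no gene's count, so both counts are uncertain.

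The remaining genes of membrane supply changed little. Atg2b, a lipid transfer protein, rose by 0.43 (SE 0.161, edgeR adjusted p 0.0470), with 53.3 to 57.3 CPM in CD4 and 63.4 to 92.1 CPM in lymphoma and no overlap. This is the least secure of the 20 calls: it was lost in 15 of 17 alternatives, including the 3 other scalings and leaving out lymphoma 34, 56, 72 or 86 or any CD4 library (0.0541 to 0.124). Atg2a (0.10, SE 0.232), Becn1 (-0.18, SE 0.307) and Atg14 (-0.32, SE 0.334) differed by less than their spread. Becn1, the scaffold of the lipid kinase complex, had 7.34, 18.1 and 18.8 CPM in CD4 and 11.2 to 15.8 CPM in lymphoma. Its exons overlap Cntd1 on the opposite strand over 43.9% of their length.

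Of the 11 conjugation genes, all tested, 1 rose and 2 fell, so that 27.3% changed, against 46.6% of all tested genes. Atg7, the activating enzyme shared by both branches of the cascade, had 23.9, 18.6 and 13.3 CPM in CD4 and 27.1, 36.0 and 43.9 CPM as the lowest, median and highest lymphoma. Every lymphoma was above every CD4 library, and the change of 0.96 (SE 0.246, edgeR adjusted p 0.00731) held in all 17 alternatives. Atg16l2 (ENSMUSG00000047767, chromosome 7, 101263034 to 101302251), a paralogue of the scaffold that places the conjugation enzyme on the membrane, had 58.1, 58.6 and 52.6 CPM in CD4. In lymphoma its lowest, median and highest values were 19.0, 25.2 and 36.2 CPM, with no overlap. It changed by -1.09 (SE 0.202, edgeR adjusted p 0.000919), or 2.13-fold lower, in all 17 alternatives. The scaffold itself, Atg16l1, fell by 0.48 (SE 0.164, edgeR adjusted p 0.0314), from 59.9 to 80.6 CPM in CD4 to 42.9 to 60.5 CPM. Here lymphoma 34 and CD4 1 overlapped, and the call was lost in 7 of 17 alternatives, 5 of them without lymphoma 56, 70 or 86 or CD4 2 or 3 (0.0735 to 0.132).

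The rest of the cascade did not pass the test. Atg5 and Atg12, which are joined to each other, stood at -0.02 (SE 0.245) and -0.17 (SE 0.212) on the log2 scale, and Atg10, the enzyme that joins them, at -0.08 (SE 0.394). Atg3, which transfers ATG8 proteins to lipid, stood at -0.42 (SE 0.174, edgeR adjusted p 0.0689) and passed in 6 of 17 alternatives, among them the 3 other scalings and leaving out lymphoma 86 (0.0464). The ATG4 proteases, which cut ATG8 proteins for attachment and recycling, gave -0.40 for Atg4a (SE 0.243), -0.12 for Atg4b (SE 0.223), -2.32 for Atg4c (SE 1.09) and -0.45 for Atg4d (SE 1.19). Without CD4 2 the values of the last 2 were -1.17 and 0.54: Atg4c and Atg4d had at most 50 and 21 counts in any library. A stretch of the 3′ end of Atg4a also matches 1 other gene at 98.2% identity.

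Of the 5 ATG8 genes, 1 fell and 0 rose (20% changed, against 46.6% of all tested genes), and the receptor gene Sqstm1 fell. Map1lc3b (LC3B), the ATG8 gene most used as a marker of autophagosomes, had 97.7, 68.3 and 139 CPM in CD4 and 65.5, 67.8 and 78.5 CPM as the lowest, median and highest lymphoma. The groups overlapped through CD4 2, and the fall of 0.53 (SE 0.198, edgeR adjusted p 0.0450) lost its call in 9 of 17 alternatives, among them leaving out lymphoma 34, 56, 70 or 86 or CD4 1 or 3 (0.0785 to 0.369). Without CD4 3 the change was -0.23. A stretch of 112 bases in the 3′ end of Map1lc3b matches 32 other genes at up to 96.4% identity, and reads aligned to more than 1 place are not counted, so its level is uncertain. Gabarap (-0.33, SE 0.162), Gabarapl1 (-0.55, SE 0.415), Gabarapl2 (-0.19, SE 0.182) and Map1lc3a (-0.89, SE 0.477) did not pass (edgeR adjusted p 0.115 to 0.415). Gabarap did so without lymphoma 53 (0.0324) and with 2 other settings, upper quartile scaling and at least 10 counts in every library. Map1lc3a rested on CD4 3 (14.5 CPM, against 2.95 and 5.63 CPM in the other CD4 libraries): it stood at -0.04 without that library, and at -1.26 with a call without CD4 1 (0.0463). Sqstm1 (p62), which carries ubiquitin-tagged cargo to ATG8 proteins, had 83.1, 69.1 and 132 CPM in CD4 and 47.3, 62.7 and 66.5 CPM as the lowest, median and highest lymphoma, without overlap. It fell by 0.68 (SE 0.209, edgeR adjusted p 0.0185). Without CD4 3 it stood at -0.36 (0.176), and the call was also lost with lymphomas 34, 70 and 72 averaged. Mrnip, on the opposite strand, overlaps 17.3% of the exonic length of Sqstm1, which makes the count uncertain.

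Of the genes for lysosome membrane glycoproteins, Lamp1 rose and Lamp2 did not pass. Lamp1 had 174, 103 and 107 CPM in CD4 and 153, 196 and 288 CPM as the lowest, median and highest lymphoma, with lymphoma 86 highest and an overlap through lymphoma 70 and CD4 1. It rose by 0.68 (SE 0.233, edgeR adjusted p 0.0307), and the call was lost without CD4 2 or CD4 3 (0.121 to 0.130). Grtp1, on the opposite strand, overlaps 9.31% of its exonic length. Lamp2, which also serves chaperone-mediated autophagy, gave 0.75 (SE 0.355, edgeR adjusted p 0.105). Its spread among tumours was wide, from 41.2 CPM in lymphoma 53 to 125 CPM in lymphoma 56. Lamp2 stood at 33.6 to 46.3 CPM in CD4. The myeloid marker sum was highest in lymphoma 56 (2268 CPM). It was 295 CPM in lymphoma 86 (Lamp2 83.9 CPM), 870 CPM in lymphoma 34 (Lamp2 63.4 CPM) and 1075 to 1340 CPM in CD4. The part of myeloid cells in the spread of Lamp2 was not tested.

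The letters CACGTG are bound by proteins of the MYC family and, most often as part of a longer site, by TFEB and TFE3. They were searched in the 250 bases before each RefSeq start (GRCm38.p6); the word is its own reverse complement, so 1 pass covers both strands. Of 53 symbols, 43 had a promoter in the table, and 6 of these held the word: Atg3, Atg5, Atg7, Atp6v0b, Atp6v1a and Lamp1. That is 13.95% of the 43, while 6.86% of all genes with a promoter and 9.61% of the tested ones held it. The extended form GTCACGTG or CACGTGAC, which contains the same word, was found in 4 of the 6, all but Atg5 and Atp6v1a. That is 9.30% of the 43, and 10.8% of the tested genes of the set with a promoter. The extended form stood in 2.11% of all genes with a promoter, 3.80% of the tested ones and 17 of 114 other pathway genes. Among tested genes with a promoter, the word stood in 3 of 7 that rose, 1 of 10 that fell and 2 of 20 that did not pass. Over the whole table these shares were 10.7%, 8.60% and 9.44%, and 26 of 114 other pathway genes with a promoter held the word.

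The 4 windows below belong to changed genes with the word and are shown to let its number and setting be compared; each is 100 bases, 5′ to 3′ on the strand of the gene, with CACGTG and its extension in capitals. Lamp1 (chr8:13159053-13159152, plus strand, rose) held 4 copies, 61, 45, 28 and 15 bases before the start. Atg7 (chr6:114670917-114671016, plus strand, rose) and Atp6v1a (chr16:44139338-44139437, minus strand, rose) held 1 each, 132 and 131 bases before it. Atp6v0b (chr4:117887330-117887429, minus strand, fell) held 2, at 36 and 18 bases. All 4 windows end before the RefSeq start, and a match describes the letters only. The starts differ from those of GENCODE M21 for 2 genes. The Atg7 window ends 27919 bases inside the GENCODE gene, in no exon of it and 9146 bases before the next annotated transcript start, so it is not the 5′ end of the annotated gene. The Atp6v1a window ends 367 bases inside its gene, also in no exon, but only 33 bases before the next annotated transcript start.
Lamp1: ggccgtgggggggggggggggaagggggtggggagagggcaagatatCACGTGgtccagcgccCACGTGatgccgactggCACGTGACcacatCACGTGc
Atg7: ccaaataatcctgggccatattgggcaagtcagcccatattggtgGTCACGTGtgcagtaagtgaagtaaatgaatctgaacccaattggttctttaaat
Atp6v1a: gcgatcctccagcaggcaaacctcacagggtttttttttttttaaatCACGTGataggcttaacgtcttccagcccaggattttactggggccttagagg
Atp6v0b: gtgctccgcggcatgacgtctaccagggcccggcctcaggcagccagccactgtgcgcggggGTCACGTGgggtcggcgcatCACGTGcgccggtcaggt

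Paralogues were then compared within libraries, since the ratio of their counts does not depend on the scaling. Of 21 pairs listed, 18 had both genes tested, and none passed Benjamini-Hochberg adjustment over the 18 (smallest adjusted p 0.107, exact two-sided permutation of the group means over 84 assignments, whose smallest p is 0.0119). With that smallest p, no pair could pass the adjustment by itself, however large its shift. The lack of a pass therefore does not show that the balances were unchanged. An unadjusted exact p under 0.05 was reached by 4 pairs. The log2 ratio of Atp6v0a1 to Atp6v0a2 was -3.63 ± 0.503 (SD, n = 6) in lymphoma and -2.11 ± 0.504 (SD, n = 3) in CD4, with no overlap (exact permutation p = 0.0119). Against Tcirg1, the third isoform of that subunit, Atp6v0a1 was at -2.91 ± 0.466 and -1.80 ± 0.182 in the same order, again without overlap (exact permutation p = 0.0238). The pair Atg9a and Atg9b differed by -8.03 (exact permutation p = 0.0119), a size that rests on the 0 to 1 counts of Atg9b in CD4, and Atp6v0d1 and Atp6v0d2 by -2.87 (exact permutation p = 0.0238), with overlap. The size of the latter rests on the 0 counts of Atp6v0d2 in CD4 2, and without that library the difference was -1.60. Ulk1 to Ulk2 (0.65), Tfeb to Tfe3 (0.89) and Atg16l1 to Atg16l2 (0.65) gave exact permutation p from 0.0595 to 0.0833 before adjustment, with overlap between the groups.

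The tumours differed among themselves at several of these genes. The median SD of log2 CPM over the 47 genes was 0.34 in lymphoma and 0.29 in CD4, against 0.47 and 0.36 over all tested genes, and without lymphoma 53 it was 0.23 against 0.34. Lymphoma 53 was the highest or lowest tumour at 31 of the 47 genes (66.0%), near its 63.7% over all tested genes. It was high for Atg101, Atp6v1f, Atp6v0b, Atp6v1c1, Tfeb and Atg4b, and low for Atp6v1e1, Atg14 (6.20 CPM, others 12.0 to 18.7) and Atg10 (2.92 CPM, others 6.40 to 10.6). The plot of deviations shows this library by its strong colours in both directions.

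**Figure D3:**
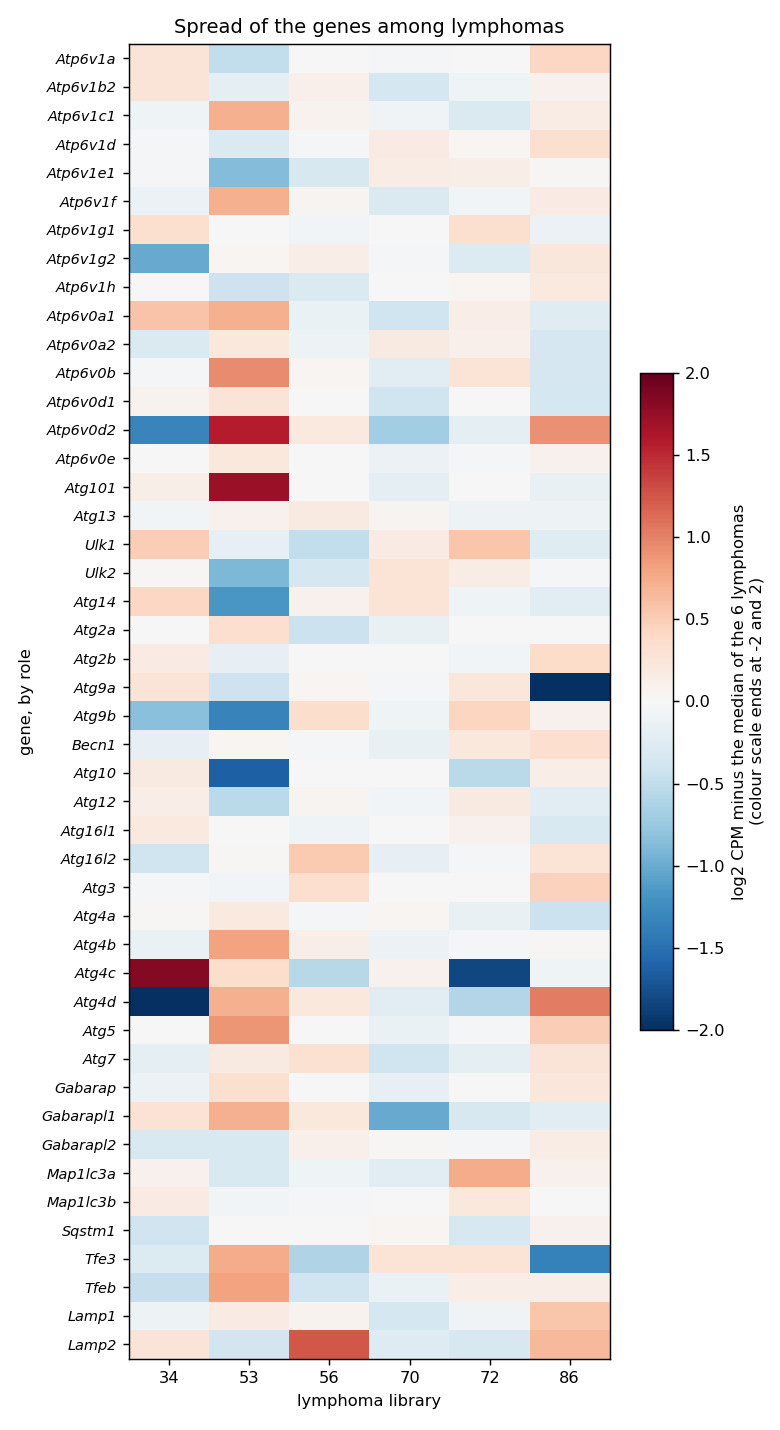
Log2 CPM of 46 tested genes in each lymphoma minus the median of the 6 lymphomas (colour; rows are genes by role, columns are libraries; Atp6v1c2 is left out for its range). Lymphoma 53 holds 17 of the highest and 14 of the lowest values over the 47 tested genes; Atg4c and Atg4d also vary, on few counts.

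Genes around this set were counted in 6 lists of 142 symbols from general knowledge, of which 137 table entries were tested. Here 12 rose and 44 fell, with a median log2 fold change of -0.29. The shares, 8.76% higher and 32.1% lower, compare with 24.7% and 21.9% over all tested genes. More genes fell than rose also under upper quartile scaling (11 and 49), RLE (12 and 47) and library size alone (12 and 45), and without lymphoma 53 (15 and 49).

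**Figure D4:**
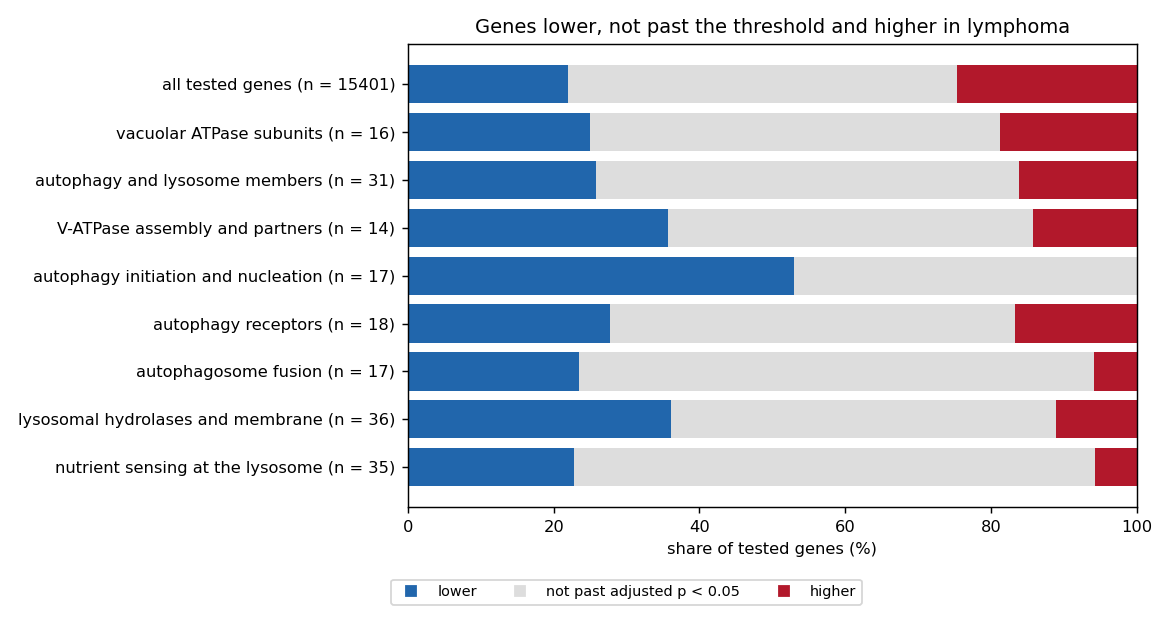
Share of tested genes lower (blue), not past an adjusted p of 0.05 (grey) and higher (red) in lymphoma, for all tested genes, the members of the set in 2 groups, and 6 lists of other pathway genes; n is the number tested. The list of autophagy initiation and nucleation has 9 of 17 genes lower and 0 higher.

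Autophagy initiation and nucleation genes outside the set had 9 of 17 lower and 0 higher, against 21.9% lower and 24.7% higher over all tested genes. An unadjusted edgeR p under 0.05 was reached by 10 of the 17, and by 8195 of all 15401 tested genes. The largest fall was that of Bcl2, which binds Beclin 1 and restrains it, and is better known as a survival protein. It had 463, 525 and 454 CPM in CD4 and 4.65 to 70.2 CPM in lymphoma (-3.97, SE 0.650, edgeR adjusted p 0.000842). Rb1cc1, the scaffold (FIP200) that completes the ULK complex, Uvrag, a partner of Beclin 1, and Bcl2l1 are named after their values were seen; they do not have the largest falls of the list. Rb1cc1 fell by 1.36 (SE 0.399, edgeR adjusted p 0.0168), Uvrag by 0.98 (SE 0.178, edgeR adjusted p 0.000855) and Bcl2l1 by 1.16 (SE 0.376, edgeR adjusted p 0.0243). Bcl2 and Bcl2l1 act against Beclin 1, so the list holds inhibitors as well as activators among the genes that fell.

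Lysosomal hydrolases and membrane proteins had 13 of 36 lower and 4 higher (36.1% and 11.1%, against 21.9% and 24.7% of all tested genes). Ctsh, a cysteine protease, had the largest fall past the threshold, from 175, 118 and 111 CPM in CD4 to 4.89 to 16.7 CPM in lymphoma (-3.58, SE 0.380, edgeR adjusted p 2.39e-05). Gaa, the enzyme that degrades lysosomal glycogen, had the largest rise past it, from 7.88 to 13.9 CPM to 19.9 to 58.8 CPM (1.76, SE 0.365, edgeR adjusted p 0.00196). Neither gene overlapped between the groups. Of the 33 markers of blood cells other than T and erythroid cells, 10 of 10 B cell, 7 of 8 plasmacytoid dendritic cell and 7 of 15 myeloid genes were lower in lymphoma and none was higher, and their part in the lysosomal falls was not tested.

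Partners and assembly factors of the pump had 5 of 14 lower and 2 higher (35.7% and 14.3%, against 21.9% and 24.7% of all tested genes). Vma21, an assembly chaperone of the V0 sector, rose by 1.02 (SE 0.236, edgeR adjusted p 0.00395), with 15.2 to 29.7 CPM in CD4 and 36.3 to 51.7 CPM in lymphoma. Rogdi, a subunit of the complex that reassembles the pump, fell by 1.96 (SE 0.478, edgeR adjusted p 0.00538), from 17.1 to 18.5 CPM to 1.63 to 9.85 CPM. Among autophagy receptors, 3 of 18 rose and 5 fell, so that 44.4% changed, near the 46.6% of all tested genes. Phb2, a mitochondrial membrane protein that can bind LC3 and is better known as a prohibitin scaffold, rose by 1.85 (SE 0.221, edgeR adjusted p 4.26e-05). Wdfy3, an adaptor for protein aggregates, fell by 2.49 (SE 0.527, edgeR adjusted p 0.00221).

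Fusion genes changed at 5 of 17 (29.4%, against 46.6% of all tested genes), 1 higher and 4 lower. The 2 named by size are paralogues that tie lysosomes to kinesin motors: Arl8a fell by 1.71 (SE 0.287, edgeR adjusted p 0.000480) and Arl8b rose by 0.56 (SE 0.194, edgeR adjusted p 0.0314). The call of Arl8b was lost with upper quartile scaling and without CD4 2 or CD4 3 (0.0863 to 0.115). Nutrient sensing genes at the lysosome changed at 10 of 35 (28.6%, also below the 46.6% of all tested genes), 2 higher and 8 lower. Rheb, the small GTPase that activates mTORC1, rose from 32.6, 27.6 and 24.0 CPM in CD4 to 56.4 to 93.8 CPM in lymphoma (1.40, SE 0.218, edgeR adjusted p 0.000292). Sesn3, a stress-induced inhibitor of that pathway, fell from 62.3 to 74.1 CPM to 4.53 to 24.8 CPM (-2.76, SE 0.506, edgeR adjusted p 0.00117).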

How the data were processed

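The authors deposited raw read counts per Ensembl gene for 9 libraries, with 5 closing rows for reads in no gene, which were left out. Per the submitters' processing notes, FastQC, HISAT2, SAMtools and HTSeq were used with mm10 (GRCm38); versions, annotation and strand setting are not given in the sources used here. Multiply aligned reads are in no gene's count, and overlapping genes are uncertain.

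All tested genes entered 1 fit with edgeR 4.0.16 (R 4.3.3, its quasi-likelihood test): filterByExpr at a minimum count of 10, TMM scaling, robust dispersion, no covariate, threshold 0.05 after Benjamini-Hochberg adjustment over 15401 genes. SE is the absolute log2 fold change over the square root of F. Library sizes for CPM were TMM-scaled; log2 CPM had a prior count of 2. Alternatives were other scalings and filters, DESeq2 1.42.0, limma voom 3.58.1, averaged lymphomas and leaving out each library. A count of 3 per library is the floor for bounds; it covers counting error only. Paralogue ratios used a pseudocount of 0.5. The fit was run on simulated counts with the same dispersion at every gene and few changed genes. That run checked the code and does not bear on the error rate in these data.

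The labels do not say that samples of a group came from separate animals, so p-values measure the spread between these samples, which may be technical. Genes, lists and tests were chosen with earlier results of these data known. Named genes were all members and, per other list, the largest rise and fall past the threshold; Rb1cc1, Uvrag and Bcl2l1 were added after their values were seen. GENCODE M21 (GRCm38) gave positions and overlaps for 53 of 54 entries, BLAST+ 2.17.0 the copies (at least 100 bases at 95% identity), and RefSeq (GRCm38.p6) the promoters. Every value column matched 1 sample.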

Additional observations from a re-analysis of the deposited data

Results flagged for a closer look

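Each of the 47 tested genes was examined for a lymphoma far from the other 5, by the gap to its nearest neighbour over the whole range of log2 CPM, against Dixon's 95% critical value for 6 libraries. This held for 3 genes, where chance gives about 2.35. Atg101 was high in lymphoma 53 (ratio 0.840), at a log2 CPM of 7.10 against 5.18 to 5.49 in the others. Atg4b was also high in lymphoma 53 (0.723), at 5.88 against 4.95 to 5.21. Atg9a was low in lymphoma 86 (0.768), at -2.13 against 0.09 to 0.77, on 1 count.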

How the results depend on the processing

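The number of changed genes of the set (20, 8 higher and 12 lower) was 12 (5 and 7) with lymphomas 34, 70 and 72 averaged, 10 (3 and 7) at an adjusted p under 0.01, and 6 (1 and 5) with the 2-fold rule. Leaving out 1 library gave 8 to 23 genes, 3 to 9 higher and 5 to 14 lower, with the lowest counts without CD4 3. The number higher was 5 with RLE scaling or library size alone, and 4 with upper quartile scaling or at least 10 counts in every library. DESeq2 called 23 and limma voom 17. Of the 20 calls, 8 held in all alternatives run, 12 were lost in at least 1, and none changed sign. Of the 27 genes not past the threshold, 7 passed in at least 1 alternative and 12 changed sign in at least 1. Counts of other pathway genes stayed between 42 and 66. No paired analysis was possible because the groups share no replicate numbers. The cause of these shifts was not tested. Atg4c, Atg4d and Atg9a had at most 50, 21 and 54 counts in any library, which limits their precision.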
